A study of Mus musculus with 2 samples.

Results

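The genes described here are hepcidin and 9 genes of iron regulation: Hamp, Hamp2, Tfr2, Tfrc, Trf, Bmp6, Id1, Smad7, Tmprss6 and Fth1. They were chosen by gene symbol, and all 10 were found among the 19465 genes of the spatial transcriptomics (ST) data. ST was done with 10x Visium on formalin-fixed, paraffin-embedded mouse liver, in which probe pairs report each RNA, a barcode gives the spot and a unique molecular identifier (UMI) marks each captured molecule. One library came from a mouse lacking AEG-1 in myeloid cells (AEG-1ΔMAC) and 1 from a floxed mouse (AEG-1fl/fl), called the knockout and the floxed section from here on; there was no replicate of either genotype, and no test between genotypes was possible. AEG-1 is the protein of the gene Mtdh. The mice were on a C57BL/6/J background, Cre was driven from the Lyz2 locus of the AEG-1ΔMAC mice, and both livers were taken at 27 weeks of age. Lyz2 is active in macrophages, monocytes and neutrophils, so the deletion was not limited to Kupffer cells. The labels give both mice a high-fat, high-sugar diet (HF/HSD) from 7 weeks of age, whereas the text of the study speaks of control diet-fed littermates for ST, and the diet was not resolved here. The question addressed was how hepcidin and its regulators differed between the sections, where in the lobule they differed, and which of them moved with hepcidin from spot to spot.

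Hepcidin is a peptide hormone made by hepatocytes that binds the iron exporter ferroportin and so limits the iron that enters plasma. Its transcription is driven mainly by bone morphogenetic protein (BMP) ligands from sinusoidal endothelial cells, which act on hepatocyte receptors together with hemojuvelin and switch on SMAD proteins. The same signal also raises Id1, Smad7, Smad6, Id3 and Atoh8, and interleukin-6 raises hepcidin through STAT3. The mouse has a pair of hepcidin genes, of which Hamp encodes the active hormone.

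Both hepcidin genes lie on the minus strand of chromosome 7 in GRCm38, the build called mm10 in the processing notes. In the GENCODE annotation Hamp spans chr7:30942368-30944032 and its transcript has 3 exons, and the Hamp2 transcript spans chr7:30922389-30924181, also with 3 exons. The transcripts are 410 and 420 bases long, and 388 aligned bases were the same, which is 94.6% of the shorter one. Their longest shared run was 87 bases and 60 runs of 50 bases occurred in both, so reads of the pair could be mixed where a probe matches both, and values of Hamp2 are uncertain for that reason. The probe sequences were not used here. The 150 bases in front of each transcript start, from the RefSeq promoter table of GRCm38.p6, are shown because the pair is so much alike in sequence while its levels differed along the lobule and from spot to spot. Capitals mark GGCGCC, the core of the BMP-responsive element known in hepcidin promoters, and TTCNNNGAA, the STAT motif; both strands were searched and these matches do not overlap.
Hamp, chr7:30944033-30944182, minus strand: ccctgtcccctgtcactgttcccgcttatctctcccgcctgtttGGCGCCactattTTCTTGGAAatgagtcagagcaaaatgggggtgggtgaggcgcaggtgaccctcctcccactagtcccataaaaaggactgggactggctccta
Hamp2, chr7:30924182-30924331, minus strand: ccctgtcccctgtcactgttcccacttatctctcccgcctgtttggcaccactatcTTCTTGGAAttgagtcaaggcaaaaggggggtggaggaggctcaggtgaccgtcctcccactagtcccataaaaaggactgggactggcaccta
The windows share 138 of 150 bases (92%). GGCGCC stood 106 to 101 bases in front of the Hamp start, and at the same place Hamp2 differed by G4A, counted from 1 at the 5′ end of the motif. TTCNNNGAA stood 94 to 86 bases in front of both starts. In 300-base windows around all 32851 listed gene starts, GGCGCC occurred in 11.9% and TTCNNNGAA in 8.30%. Of the 6 members with a listed window used here, Hamp and Tfrc held GGCGCC, and Hamp and Hamp2 held TTCNNNGAA. These matches describe letters and not binding.

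The knockout library held 2140 spots and 45453286 UMIs after filtering, with a median of 20930 UMIs per spot. The floxed library held 2540 spots and 50322850 UMIs, with a median of 18285 per spot. Levels are given as UMIs per 1000000 of the library (CPM) summed over spots, with 95% exact Poisson intervals, and ratios as log2 of the knockout over the floxed section with 95% exact binomial intervals; both express counting error and leave out any spread between mice. Levels of different genes cannot be compared, since probes bind unequally. A spot holds several cells, so fewer cells of a type and less RNA per cell cannot be told apart. For the 6933 genes whose mean reached 10 CPM, the median log2 ratio was 0.15, and under other scalings of the libraries it fell by 0.12 to 0.14, so each ratio should be read against that median. Mtdh itself, which most liver cells express, was at 66.3 CPM in the knockout section and 60.2 CPM in the floxed section, which does not check a deletion limited to myeloid cells. All 7 hepatocyte markers were detected. Their summed level, of which Alb made up 61.0%, was 156773 CPM against 219852 CPM, a log2 ratio of -0.49, while 3 of the 7 were higher in the knockout section and single genes ranged from -0.69 to 0.61.

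Both hepcidin genes were higher in the knockout section, and Id1, a transcription regulator that BMP signalling raises, was lower there. Hamp was at 611 CPM (604 to 618) in the knockout section and 283 CPM (278 to 288) in the floxed section. This is a 2.16-fold difference, a log2 ratio of 1.11 (1.08 to 1.14), and place 68 from the top of the 6933 genes. Per spot, the median was 5.84 UMIs per 10000 against 2.45, and the 10th and 90th percentiles were 2.03 and 10.1 in the knockout section against 0.718 and 5.17 in the floxed section, so the spots of the sections overlapped widely. The RNA was almost everywhere: 99% of knockout spots and 94.8% of floxed spots had a Hamp UMI, or 97.0% and 88.7% when each spot was thinned to 10000 UMIs.

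Hamp2 was at 89.0 CPM (86.3 to 91.8) against 54.0 CPM (52.0 to 56.1), a log2 ratio of 0.72 (0.65 to 0.79). It was the more unevenly spread gene in the knockout section: single spots held up to 33 Hamp2 UMIs, against 10 in the floxed section. The spot-to-spot coefficient of variation beyond counting error was 0.907 for Hamp2 in the knockout section and 0.490 in the floxed section, whereas for Hamp it was 0.433 and 0.475. There were 6.87 Hamp UMIs for each Hamp2 UMI in the knockout section and 5.24 in the floxed section.

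Of the BMP signal, the genes Id1, Bmp6 and Smad7 were described with hepcidin. Id1 was at 18.9 CPM (17.7 to 20.2) against 30.4 CPM (28.9 to 32.0), a log2 ratio of -0.69 (-0.81 to -0.57) and 1.61-fold lower. Bmp6, the ligand that rises with liver iron, was at 12.6 CPM (11.6 to 13.7) against 11.3 CPM (10.4 to 12.3), and its interval for the log2 ratio of 0.15 included 0 (-0.02 to 0.32). Smad7, an inhibitor of the same pathway that its signal induces, was at 13.4 CPM (12.3 to 14.5) against 11.3 CPM (10.4 to 12.3), a log2 ratio of 0.24 (0.07 to 0.41). These 3 genes were sparse, with a UMI in 22.8% to 31.6% of knockout spots and 19.3% to 41.9% of floxed spots.

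The RNAs of 2 hepatocyte proteins that set how strongly hepcidin responds had ratios slightly above the median of all genes. Tmprss6, a membrane protease that cleaves hemojuvelin and so lowers hepcidin, was at 333 CPM (328 to 338) against 272 CPM (267 to 276), a log2 ratio of 0.29 (0.26 to 0.33). Tfr2, the receptor by which hepatocytes sense iron-loaded transferrin, was at 248 CPM (243 to 252) against 214 CPM (210 to 218), a log2 ratio of 0.21 (0.18 to 0.25). Relative to the median of all genes, they were 0.15 and 0.07 higher.

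Trf, Tfrc and Fth1, of iron carriage, uptake and storage, each differed by less than 1.5-fold. Trf, the plasma iron carrier transferrin, was at 10117 CPM (10088 to 10146) against 12778 CPM (12747 to 12809), a log2 ratio of -0.34 (-0.34 to -0.33). Tfrc, the receptor that takes up transferrin, was at 18.7 CPM (17.4 to 20.0) against 20.8 CPM (19.5 to 22.1), a log2 ratio of -0.15 (-0.29 to -0.02). Fth1, the heavy chain of ferritin that stores iron, was at 3314 CPM (3298 to 3331) against 2816 CPM (2801 to 2830), a log2 ratio of 0.24 (0.22 to 0.25).

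Fth1 and Tfrc RNAs carry iron-responsive elements, hairpins that bind iron regulatory proteins when cell iron is low. Binding in front of the coding sequence blocks translation of Fth1, and binding behind it protects Tfrc RNA from decay, so a Tfrc level can follow cell iron while an Fth1 RNA level need not. The hairpins are shown because they set what these RNA levels can report. Capitals mark the loop, found as C, 5 bases and CAGTG with A, C or T after it, and listed where all 5 bases on either side of the loop could pair, G with T included.
Fth1, chr19:9982732-9982761: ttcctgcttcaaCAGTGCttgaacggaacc
Tfrc first, chr16:32631219-32631248: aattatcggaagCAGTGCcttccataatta
Tfrc second, chr16:32631598-32631627: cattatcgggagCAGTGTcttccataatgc
Tfrc next, chr16:32631663-32631692: ctatatcggagaCAGTGAtctccatatgtt
Tfrc last, chr16:32631710-32631739: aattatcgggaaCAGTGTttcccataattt
The Fth1 element lies in exon 1 before the start codon, the Tfrc elements lie in the last exon after the stop codon, and both genes are on the plus strand of GRCm38. Letters are from GENCODE transcripts.

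Of the 10 genes, 3 differed by at least 1.5-fold with an interval on the same side of 1 (Hamp and Hamp2 higher, Id1 lower), while 6.09% of all genes did. By the interval alone, 6 were higher and 3 lower, beside 59.5% and 11.7% of all genes. All 10 passed the minimum of 10 CPM. Hamp2 is close to the limit: relative to the median of all genes its log2 ratio was 0.57, and with the 50 most abundant genes left out of the totals it was 0.58, just under 1.5-fold.

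**Figure D1:**
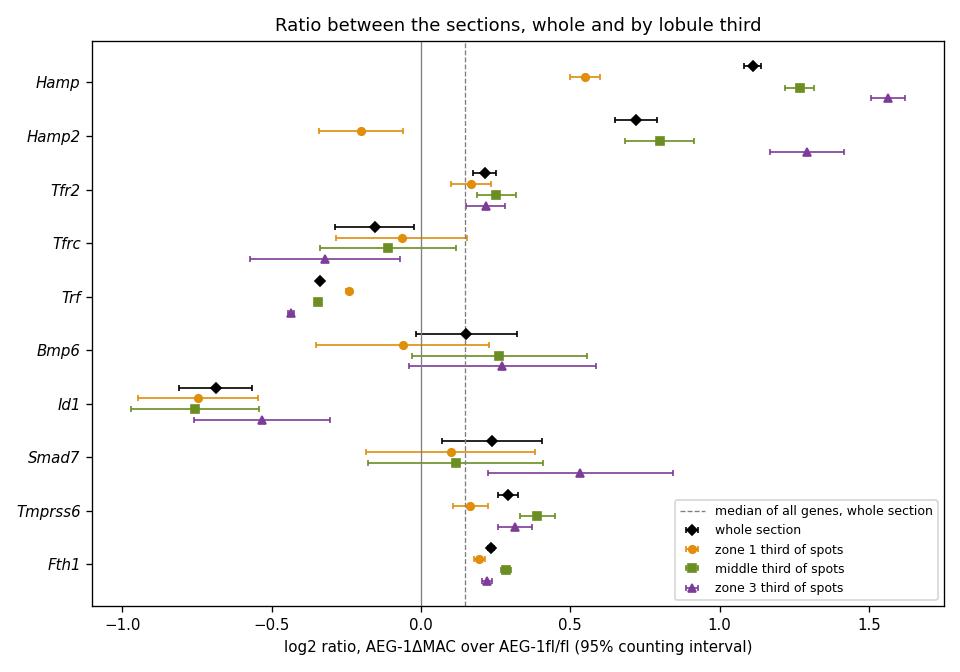
Log2 ratio of knockout over floxed (x axis) for the 10 genes (y axis), over whole sections and in 3 equal parts of the spots ranked from zone 1 to zone 3, with 95% counting intervals and 1 section per genotype. Hamp ran from 0.55 in the zone 1 part to 1.56 in the zone 3 part and Hamp2 from -0.20 to 1.29, while Id1 stayed between -0.76 and -0.53.

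Lobule position was read from a zone index, the mean scaled level of 3 zone 3 (pericentral) markers minus that of 6 zone 1 (periportal) markers, none of them a gene described here. Spots were ranked within each section and split into 3 equal parts, or 10 equal bins. All 8 other zone 1 landmarks fell and all 7 other zone 3 landmarks rose from zone 1 to zone 3 in both sections. The sections differed in the index itself, however: with all spots ranked together, 22.9% of knockout spots and 42.1% of floxed spots fell in the zone 1 part, and 43.7% and 24.6% in the zone 3 part. A difference in the positions sampled and one in the level of the zone markers cannot be told apart here.

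Hepcidin was arranged differently along the lobule in the 2 libraries. In the floxed section, Hamp was highest at the zone 1 end, with 361 CPM in bin 1, 306 in bin 4, 281 in bin 7 and 144 in bin 10. In the knockout section, it rose from 411 CPM in bin 1 to 610 in bin 4 and 764 in bin 7 and then fell to 455 in bin 10. The curve was thus midlobular in the knockout section and fell steadily in the floxed section. The ratio between sections grew at every step towards zone 3, though bins 8 to 10 did not differ beyond their intervals: it was 1.14-fold in bin 1, 1.99-fold in bin 4, 2.72-fold in bin 7 and 3.16-fold in bin 10.

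Hamp2 also peaked in bin 7 of the knockout section, where it varied 4.49-fold between its highest and lowest bin, against 1.86-fold for Hamp. In the floxed section it was flatter than Hamp and lay between 38.4 CPM in bin 10 and 64.7 CPM in bin 6. In the knockout section it rose from 30.7 CPM in bin 1 to 138 CPM in bin 7 and was 104 CPM in bin 10. At the zone 1 end Hamp2 was lower in the knockout section, with a log2 ratio of -0.83 (-1.14 to -0.53) in bin 1, and at the zone 3 end it was higher, with 1.44 (1.17 to 1.70) in bin 10.

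**Figure D2:**
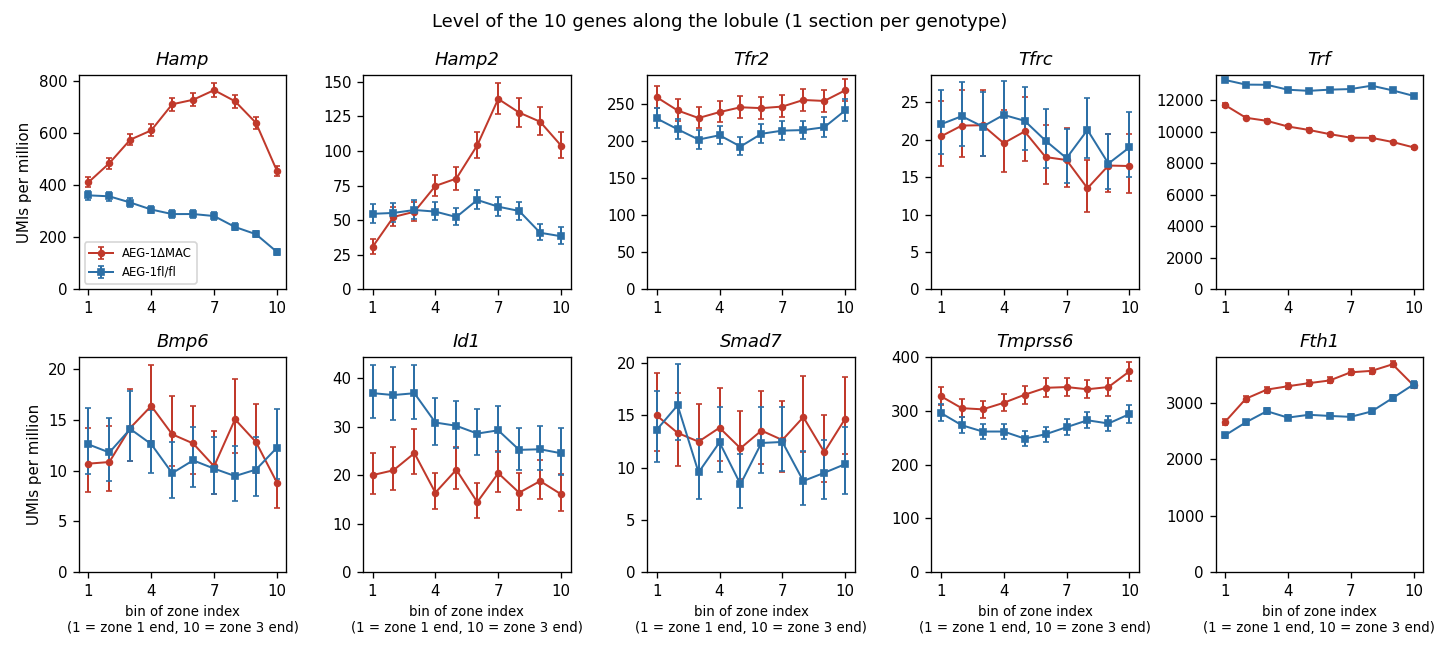
Level of each gene (y axis, UMIs per 1000000, from 0) in 10 equal bins of the zone index (x axis, 1 is the zone 1 end and 10 the zone 3 end) in the knockout section (circles) and the floxed section (squares), with 95% Poisson intervals. Hamp peaked at 764 in bin 7 of the knockout section and fell from 361 to 144 in the floxed section, and Trf fell from 11697 to 9010 in the knockout section and from 13287 to 12278 in the floxed section.

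From the zone 1 to the zone 3 part, Hamp rose by a log2 ratio of 0.31 (0.26 to 0.35) in the knockout section and fell in the floxed section with -0.71 (-0.77 to -0.65). Hamp2 gave 1.28 (1.15 to 1.41) and -0.21 (-0.35 to -0.08). By the 1.5-fold rule 1 of the 10 genes changed in the knockout section (Hamp2) and 1 in the floxed section (Hamp), beside 5.01% and 4.59% of all genes. Set against the pooled outer parts, the middle part of the knockout section was higher in Hamp by 0.32 (0.29 to 0.36), place 15 of 6933 genes, and in the floxed section by 0.07 (0.02 to 0.12), place 705. Igfbp2, which the study used with Hamp and Hamp2 to mark zone 2, gave 0.30 in the knockout section and 0.12 in the floxed section. In the floxed section Hamp fell from part to part, at 344, 292 and 211 CPM, so its value of 0.07 was not a middle peak. Whether the lower middle-over-outer value of the floxed section is particular to hepcidin was not tested.

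Every one of the other 8 genes changed by less than 1.5-fold between these parts in both sections. Trf fell towards zone 3 with log2 ratios of -0.24 (-0.25 to -0.23) in the knockout section and -0.04 (-0.05 to -0.04) in the floxed section. Fth1 rose by 0.22 (0.20 to 0.24) and 0.19 (0.18 to 0.21). Storage ferritin RNA was thus higher at the pericentral end in both sections. Id1 fell with -0.25 (-0.49 to -0.01) and -0.46 (-0.65 to -0.28), and Tfrc with -0.48 (-0.73 to -0.24) and -0.23 (-0.45 to -0.01). Bmp6 and Smad7 fell in the floxed section, with -0.36 (-0.67 to -0.06) and -0.45 (-0.75 to -0.14), while in the knockout section their values of -0.03 and -0.01 had intervals that included 0. For Tmprss6 the value was 0.18 (0.13 to 0.24) in the knockout section and 0.03 (-0.03 to 0.09) in the floxed section, and for Tfr2 it was 0.08 (0.02 to 0.15) and 0.04 (-0.03 to 0.10).

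Part by part, the ratio of Hamp between sections was 0.55 (0.50 to 0.60) in zone 1, 1.27 (1.22 to 1.32) in the middle and 1.56 (1.51 to 1.62) in zone 3. For Hamp2 it was -0.20 (-0.34 to -0.06), 0.80 (0.68 to 0.92) and 1.29 (1.17 to 1.42). Id1 stayed lower throughout, with -0.75 (-0.95 to -0.55), -0.76 (-0.97 to -0.54) and -0.53 (-0.76 to -0.31). The 1.5-fold rule was met in zone 1 by 1 of the 10 genes (Id1), beside 5.74% of all genes. In the middle part 3 met it (Hamp, Hamp2 and Id1), beside 6.97%, and in zone 3 Hamp and Hamp2 did, beside 7.20%. These calls lay near the limit for 2 genes: with spots of both libraries ranked together Hamp2 was at 0.43 in the middle part, under 1.5-fold, and with TMM factors Id1 was at -0.66 in zone 3, past it.

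**Figure D3:**
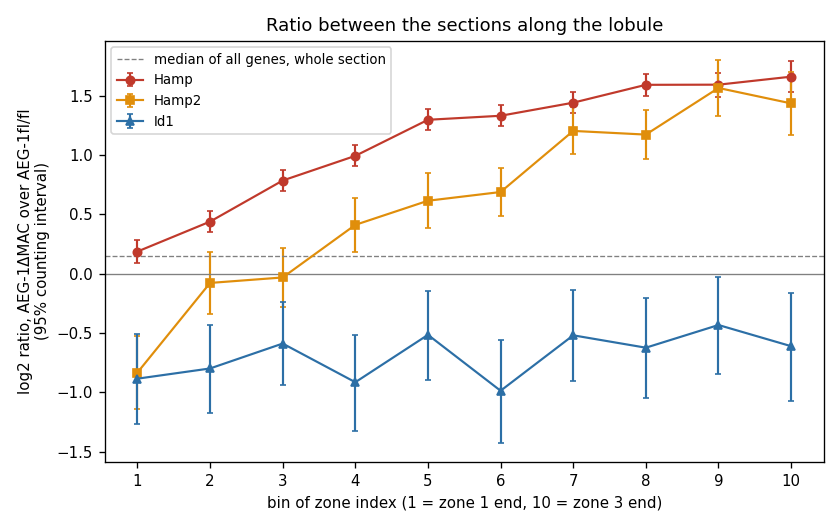
Log2 ratio of knockout over floxed (y axis) in each of 10 bins of the zone index (x axis) for Hamp, Hamp2 and Id1, with 95% counting intervals. Hamp climbed from 0.19 to 1.66 and Hamp2 from -0.83 to 1.44, and Id1 was below 0 in all 10 bins.

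The shift of the ratio from the zone 1 to the zone 3 part was among the largest of all genes for hepcidin. It was 1.49 for Hamp2 (approximate 95% interval 1.31 to 1.68), the highest of 6933 genes, and 1.02 for Hamp (0.94 to 1.09), place 3, while the 5th and 95th percentiles of all genes were -0.31 and 0.29. Smad7 shifted by 0.43 (0.03 to 0.84) and Tmprss6 by 0.15 (0.07 to 0.23). Fth1 shifted by 0.03 (3.0e-05 to 0.05) and Trf by -0.19 (-0.21 to -0.18). Intervals lay above 0 in 5 of the 10 genes and below 0 in 1, beside 9.04% and 8.37% of all genes. Fth1 counts among the 5 by a lower limit barely above 0, and its shift held place 3185. Bmp6 at 0.33 and Id1 at 0.21 had intervals that included 0.

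Among 18 further genes of BMP signalling to hepcidin with at least 10 CPM, 5 (27.8%) had a shift with an interval above 0 and none below. Of all genes, 9.04% lay above and 8.37% below. The median shift of the 18 was 0.07, beside 0.01 for all genes. The 5 above 0 were Atoh8 at 0.91 (place 6), Smad6 at 0.71 (place 11), Id3 at 0.68 (place 14), Id2 at 0.65 (place 18) and Smad9 at 0.49 (place 66). Atoh8, Smad6 and Id2 are named because of these values. Atoh8 and the Id genes encode transcription regulators, Smad6 an inhibitor of the pathway, and Smad9 one of its signal carriers. Ligands and receptors of the list had intervals that included 0. Bmp2 gave 0.00 (-0.29 to 0.28) and Bmpr1a -0.03 (-0.35 to 0.28). Acvr1 gave 0.12 (-0.28 to 0.51) and hemojuvelin, Hjv, 0.12 (-0.29 to 0.52), wide enough to hold the shift of Smad9. The ligand Bmp6, one of the 10 genes, gave 0.33 (-0.08 to 0.75). Place 2 of all genes was held by Scara5, a receptor for ferritin, at 1.37 (0.99 to 1.75), from a list of iron uptake genes. In that list it was the only one of 16 genes (6.25%) with an interval above 0, under the 9.04% of all genes, and none lay below. Of 8 genes of the interleukin-6 and STAT3 arm, 1 lay above and 1 below. Of 9 genes of haemoglobin and heme recovery, 1 lay above and 2 below. Over all 4 lists, 8 of 51 genes (15.7%) lay above and 3 (5.88%) below.

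**Figure D4:**
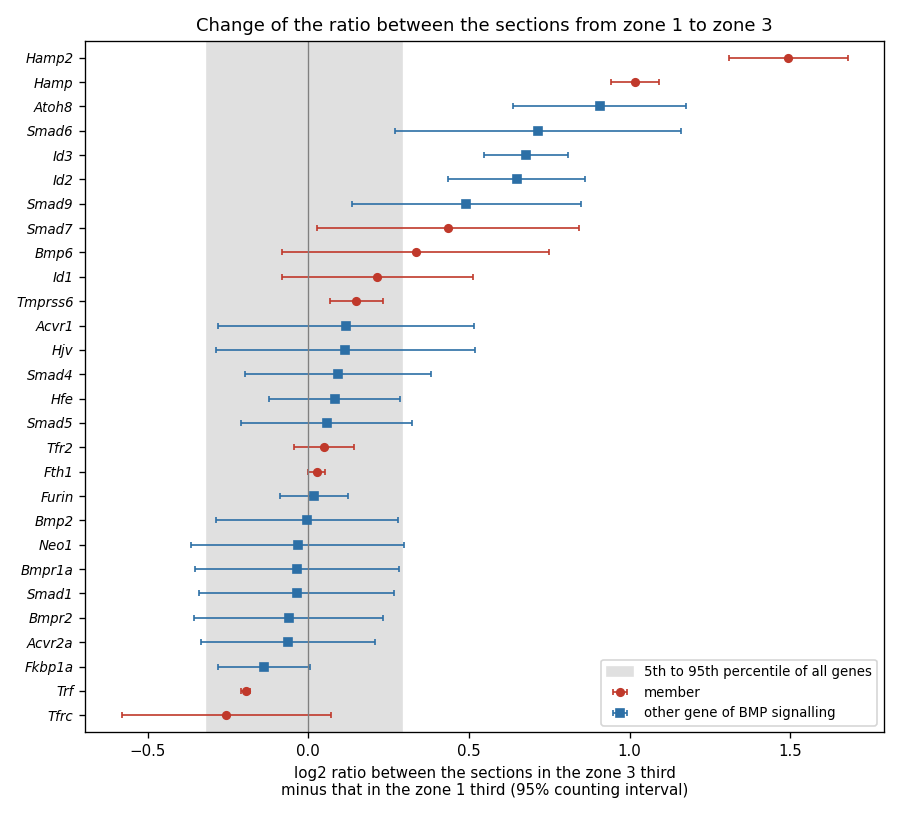
Log2 ratio between the sections in the zone 3 part minus that in the zone 1 part (x axis) for the 10 genes (circles) and 18 further genes of BMP signalling (squares), with approximate 95% counting intervals; the grey band spans the 5th to 95th percentile of 6933 genes. Hamp2 at 1.49 and Hamp at 1.02 lie farthest right, followed by Atoh8, Smad6, Id3, Id2 and Smad9.

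How hepcidin varied between spots of similar lobule position was described by centring each gene within the 10 bins. Each bin spans a range of the zone index, so position inside a bin was not held fixed. These spots share a section, a library and their depth, so the correlations carry no p. Over 2140 spots of the knockout section and 2540 of the floxed section, most correlations with Hamp were weak in these sparse counts: the 1st and 99th percentiles over 6932 genes were -0.07 and 0.11 in the knockout section and -0.05 and 0.07 in the floxed section. Of Hamp itself, 18.7% of the variance between spots lay between bins in the knockout section and 12.4% in the floxed section.

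For Hamp2, r with Hamp was 0.02 in the knockout section (place 1743) and 0.19 in the floxed section (place 2), whereas with no centring within bins it was 0.15 (place 71) and 0.21 (place 22). The difference between the sections was thus smaller with no centring. For Trf, r was 0.10 in the knockout section (place 100), and with each spot thinned to 10000 UMIs it was 0.03. In the floxed section it was -0.25, the lowest of all genes, and -0.18 when thinned. Id1 gave 0.08 (place 145) and 0.10 (place 10), Bmp6 0.01 and 0.07, Smad7 0.01 and 0.02, Tmprss6 0.11 (0.023 when thinned) and 0.01, Tfrc -0.07 and 0.00, Tfr2 0.01 and -0.02, and Fth1 0.01 and -0.03.

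Sums over many spots are less affected by sparse counts. Within each bin, the upper and lower of 3 equal groups of spots by Hamp were compared, giving 710 spots in each group of the knockout section and 840 in each group of the floxed section. Hamp itself was at 934 CPM in the upper spots and 312 in the lower spots of the knockout section, and at 469 and 114 in the floxed section. Spots high in Hamp were slightly deeper, with medians of 21730 against 20503 UMIs in the knockout section and 18962 against 17221 in the floxed section.

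Id1 was the gene described here that followed Hamp in both sections. In the knockout section it was at 22.3 CPM in spots high in Hamp and 15.8 CPM in spots low in Hamp, a log2 ratio of 0.50 (0.26 to 0.75) and place 3 of 6932 genes. In the floxed section it was at 33.9 and 25.6 CPM, a log2 ratio of 0.41 (0.22 to 0.59) and place 30. So Id1 was higher beside Hamp within each section, although between the sections it was lower where Hamp was higher.

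Bmp6 was at 13.6 CPM in high and 9.36 CPM in low spots of the floxed section, a log2 ratio of 0.54 (0.23 to 0.84) and place 9. In the knockout section it was at 13.7 and 11.9 CPM, and the interval of its ratio of 0.20 included 0 (-0.10 to 0.49). Hamp2 gave 65.1 and 44.7 CPM in the floxed section, a log2 ratio of 0.54 (0.41 to 0.68), and 90.7 and 87.4 CPM in the knockout section, 0.05 (-0.06 to 0.16). The ligand and the second hepcidin gene thus rose with Hamp in the floxed section, and whether the sections differ in this was not tested.

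Tfrc, which takes up transferrin iron, was at 16.2 CPM in high and 21.0 CPM in low spots of the knockout section, a log2 ratio of -0.38 (-0.62 to -0.13). In the floxed section it was at 20.6 and 21.3 CPM, -0.05 (-0.27 to 0.17). Fth1 was lower in spots high in Hamp in both, with -0.11 (-0.12 to -0.09) and -0.02 (-0.04 to -0.0024), although the floxed value turned to 0.0027 between the outer 10% of spots. Trf gave -0.0018 (-0.01 to 0.01) and -0.09 (-0.10 to -0.08), and Tmprss6 0.08 (0.03 to 0.14) and -0.02 (-0.08 to 0.04). Smad7 at 0.03 and 0.18 and Tfr2 at -0.02 and -0.04 had intervals that included 0.

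Of the 9 genes other than Hamp, 2 were higher and 2 lower in spots high in Hamp in the knockout section by their intervals, beside 4.73% and 8.74% of all genes. In the floxed section 3 were higher and 2 lower, beside 4.41% and 3.77%. Id1 was above 0 in both sections, as were 38 of 6932 genes, and Fth1 below 0 in both, as were 33. Among 51 other iron genes with at least 10 CPM, 3 were above 0 in both: Id3 at 0.26 (0.18 to 0.34) and 0.28 (0.18 to 0.38), Atoh8 at 0.30 (0.11 to 0.48) and 0.28 (0.07 to 0.49), and ceruloplasmin, Cp, an iron-oxidising plasma protein, at 0.03 in each. Id3 and Atoh8 belong, like Id1, to the genes that BMP signalling raises. Smad6 and Smad7 belong there too, but their intervals included 0 in both sections. Smad6 gave -0.27 and 0.30, and Smad7 gave 0.03 and 0.18. Of the 18 further genes of BMP signalling, 2 were above and 3 below 0 in the knockout section. In the floxed section 3 were above and 0 below.

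**Figure D5:**
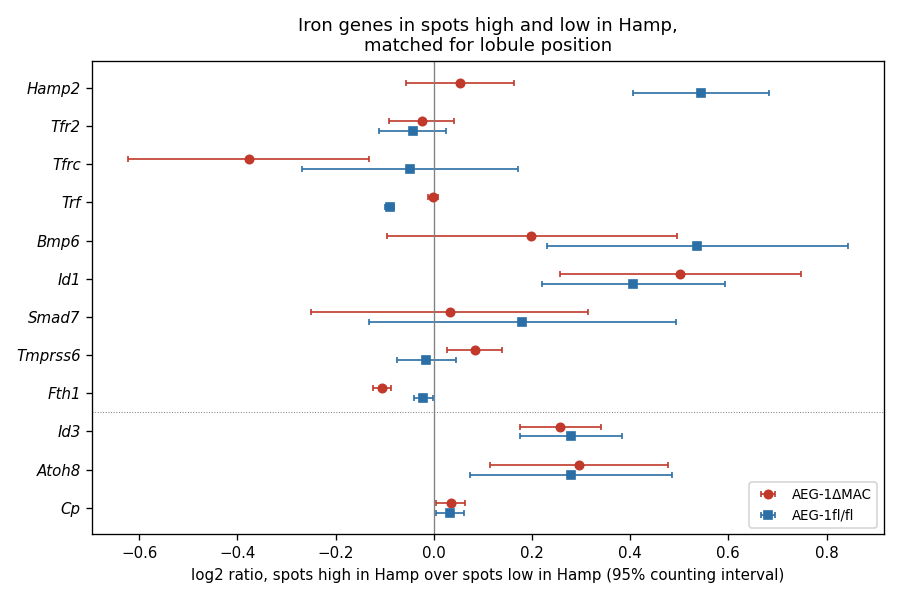
Log2 ratio of spots high in Hamp over spots low in Hamp, matched for lobule bin (x axis), for the 9 other genes and, below the dotted line, Id3, Atoh8 and Cp, in the knockout section (circles) and the floxed section (squares), with 95% counting intervals. Id1 lies at 0.50 and 0.41 and Id3 at 0.26 and 0.28, while Hamp2 lies at 0.05 and 0.54.

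Markers of other cells moved between the same groups of spots, and their part in these results was not tested. The 5 cholangiocyte markers, of which Spp1 made up 70.7%, had a log2 ratio of high over low spots of -1.05 in the knockout section, where 0 of 5 were higher, and 0.53 in the floxed section, where 5 of 5 were higher. The sum of the 8 erythroid markers gave -0.45 with 2 of 8 higher, and 0.20 with 5 of 8 higher. The 10 markers of sinusoidal endothelial cells, which make Bmp6, gave 0.00 with 8 of 10 higher, and -0.02 with 3 of 10 higher. The 7 hepatocyte markers, of which Alb made up 61.0%, gave sums of 0.00 and 0.01, although 6 of 7 were higher in each section. The 7 stellate cell markers gave -0.17 with 1 of 7 higher, and -0.03 with 2 of 7 higher. The 8 lymphocyte markers gave -0.26 with 2 of 8 higher, and 0.00 with 5 of 8 higher. The 9 Kupffer cell markers gave -0.03 with 3 of 9 higher, and -0.06 with 2 of 9 higher. In the floxed section Id1 and the cholangiocyte sum both rose with Hamp, and in the knockout section Id1 rose while that sum fell. Whether cholangiocyte content had a part in the rise of Id1 was not tested. Over all spots, r of Id1 with the cholangiocyte sum was 0.15 in each section. For Bmp6, r with the cholangiocyte sum was 0.07 in the knockout section and 0.13 in the floxed section. With the endothelial sum, r of Bmp6 was 0.07 and 0.06.

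Among genes with at least 50 CPM, those most like Hamp from spot to spot, by the mean of both within-bin correlations over 2180 genes, were led by Apoa5, an apolipoprotein of triglyceride metabolism, with r of 0.33 in the knockout section and 0.21 in the floxed section. Next came Scd1, a fatty acid desaturase, at 0.21 and 0.12, Cps1, of the urea cycle, at 0.21 and 0.07, Csad, of taurine synthesis, at 0.18 and 0.09, and Id3 at 0.13 and 0.11. Fn1 at 0.19 and 0.05, Apoa1 at 0.12 and 0.12, and Serpina1e at 0.29 and -0.06 completed the 8 highest, with opposite signs for Serpina1e. The 4 lowest were Cyp3a11, a drug-metabolising enzyme, at -0.09 and -0.22, Mup17 at -0.05 and -0.15, Gpx1 at -0.08 and -0.08, and Trf.

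Over whole sections, the other genes of the pathway were read as lists, to be set beside the 59.5% of all genes that were higher and the 11.7% that were lower by interval. Of 18 genes of BMP signalling, 14 (77.8%) were higher by interval and 1 (5.56%) lower, with a median log2 ratio of 0.29, beside 0.15 for all genes. Those farthest from the all-gene median were Smad9 at 0.85, Id3 at 0.75, the endothelial ligand Bmp2 at 0.62 (33.6 against 21.9 CPM) and Fkbp1a, which restrains BMP receptors, at -0.26. Of 8 genes of the interleukin-6 and STAT3 arm, 5 (62.5%) were higher and 1 (12.5%) lower, near those shares, with a median of 0.08. Socs3, which STAT3 induces, stood out at 24.6 against 8.51 CPM, a log2 ratio of 1.53 (1.37 to 1.69), while the receptor chain Il6st was at -0.22, Jak1 at -0.06 and Il6ra at 0.32. Il6 itself had 0.154 and 0.219 CPM, too few UMIs to compare.

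Of 16 genes of iron uptake, export and storage, 12 (75%) were higher and 1 (6.25%) lower, with a median of 0.20. Scara5 was at 0.71, the iron importer Slc39a14 at 0.67, the mitochondrial importer Slc25a28 at 0.49 and the ferrireductase Steap3 at -0.22. Ferroportin, Slc40a1, the target of hepcidin, was at 145 against 121 CPM, a log2 ratio of 0.26. Of 9 genes of haemoglobin and heme recovery, 4 (44.4%) were higher and 3 (33.3%) lower, with a median of 0.10. Cd163, the macrophage haemoglobin scavenger, was at 27.9 against 10.3 CPM, 1.44 (1.29 to 1.59), and Hmox1, which breaks down heme, at 13.2 against 22.0 CPM, -0.73 (-0.88 to -0.59). The heme carrier Hpx was at -0.47 and the biliverdin reductase Blvrb at 0.51. The summed 9 Kupffer cell markers were at 980 against 1006 CPM, a log2 ratio of -0.04, with single genes from -1.84 to 0.21.

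In all, 7 of the 51 other iron genes were at least 1.5-fold higher and 1 lower, beside 298 and 124 of 6933 genes, with a median of 0.20. Of 69 listed genes, 65 were found in the files by symbol.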

How the data were processed

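ST libraries of 1 AEG-1ΔMAC and 1 AEG-1fl/fl liver section, on the same slide, were analysed. The authors ran Space Ranger 2.0.1 with the mm10 reference and its mouse probe set, and the deposited values are raw UMI counts per gene and spot; Seurat 4.3.0 is also named in the processing notes. Following the study's limits, spots with more than 50000 UMIs, under 100 genes or over 7000 genes were left out (9 and 3 spots). The study gives 2149 knockout and 2543 floxed spots after these limits, which are the numbers deposited. The 2140 and 2540 spots kept here are thus fewer than its own. Spot barcodes mark array places, and 1776 occurred in both sections; spot positions were not used here. Counts were summed over spots. With 1 section per genotype no p was computed, and genes were called by size (1.5-fold, mean of at least 10 CPM). Spots were scored on log2(UMIs per 10000 + 1). The change of a ratio between parts has a normal approximate interval. Members and gene lists were chosen with earlier results of these data known. Named genes are the 10 members, up to 4 per list farthest from the all-gene median, the 8 highest and 4 lowest in correlation with Hamp, and those marked as chosen after their values were seen. Python 3.11.15, scipy 1.17.1 and edgeR 4.0.16 (TMM factors) were used, and the scripts were tested on simulated data. The alternatives were other library scalings, spot filters, spots matched on UMIs, another zone index, joint ranking, other splits and thinned spots.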

Additional observations from a re-analysis of the deposited data

Results flagged for a closer look

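Hamp rose from the zone 1 to the zone 3 part of the knockout (AEG-1ΔMAC) section with a log2 ratio of 0.31 and fell in the floxed (AEG-1fl/fl) section with -0.71, so the sections lay on opposite sides of 0. Hamp2 did likewise, with 1.28 and -0.21. Fth1 was higher in the middle than in the outer parts of the knockout section, with a log2 ratio of 0.052, and lower in the floxed section, with -0.024. With 1 section per genotype the difference was not tested in any of the 3.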

How the results depend on the processing

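Of 272 alternative values, 204 stayed within the interval of the reported value (counting error for ratios, Fisher's over spots for correlations, 1.5-fold for counts of genes), 66 moved outside it, and in 2 a value whose interval left out 0 changed sign. Fisher's interval takes spots as independent although they share a section, so for correlations it is only a rough yardstick. No spread between mice was available as a yardstick, no section could be left out, and sparse genes such as Bmp6 and Smad7 are limited by depth. No paired analysis was possible because each genotype had 1 section. Both sign changes concern small values. The correlation of Trf with Hamp in the knockout section was -0.0017 with no centring, 0.0047 by Spearman and 0.032 in thinned spots. Fth1 in floxed spots high over low in Hamp was 0.0027 between the outer 10% of spots. Of values whose interval included 0, the correlation of Fth1 in the knockout section turned to -0.16 by Spearman and -0.10 in thinned spots, and Bmp6 in knockout spots high over low in Hamp to -0.13 between the outer 10% of spots.

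With TMM factors, median-of-ratios factors and totals without the 50 most abundant genes, the whole-section log2 ratio was 0.99, 0.98 and 0.97 for Hamp, 0.60, 0.59 and 0.58 for Hamp2 and -0.81, -0.82 and -0.83 for Id1. For Hamp, spots ranked together gave 0.46 in zone 1 and 1.79 in zone 3, the outer 10% of spots 0.19 and 1.66, and TMM factors 0.42, 1.14 and 1.44 in zone 1, middle and zone 3. Hamp from zone 1 to zone 3 of the floxed section was -0.63 in spots matched on UMIs. The correlation of Hamp2 with Hamp was 0.15 in the knockout section with no centring and 0.13 in thinned floxed spots, and that of Trf was -0.18 in floxed spots when thinned and also -0.18 with no centring. In spots high over low in Hamp of the whole knockout section, Hamp2 was 0.40 and Trf -0.036, and Trf was -0.065 in the floxed section. Between the outer 10% of floxed spots, Hamp2 was 1.18, Trf -0.15 and Id1 0.89.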
